A study of Mus musculus with 24 samples.

Results

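The data described here are the unstimulated bone marrow-derived macrophages (BMDMs) of mice in which the 3 TET genes had been targeted for deletion (TET iTKO, an inducible triple knockout), set against those of wild-type (WT) mice. They comprised 4 of the 24 RNA libraries of the series, chosen by their titles and their label of 0 h of stimulation: 2 of TET iTKO BMDMs and 2 of WT BMDMs, numbered replicates 1 and 2. The TET iTKO mice carried floxed alleles of Tet1, Tet2 and Tet3 and an inducible Cre recombinase that acts once tamoxifen is given. The strain of both groups was C57BL/6, the mice were 8 to 16 weeks old, and Cre-expressing and control mice had both received tamoxifen. Whether the wild-type mice carried floxed alleles or Cre is not given in the sources used here. Marrow cells had been grown in medium conditioned by L929 cells and then with added M-CSF, non-adherent cells had been washed off, and the adherent cells had been plated overnight. Nothing in the labels says whether replicates 1 and 2 were separate mice, so p-values measure the spread between these libraries, which may be technical. The other libraries of the same cohort, 2 of each genotype after 6 h of KLA (Kdo2-lipid A, an agonist of Toll-like receptor 4), entered the fit to share its estimate of the spread.

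TET proteins are dioxygenases that oxidise 5-methylcytosine in DNA to 5-hydroxymethylcytosine and further to 5-formylcytosine and 5-carboxylcytosine, and the loss of these oxidised bases during replication or repair removes the methyl mark. Macrophages are phagocytes of tissues. Monocytes become macrophages under M-CSF, a change in which genes of blood progenitors and granules are shut off while genes of lysosomes, complement and lipid handling are turned on. Ligands of Toll-like receptor 4 start a second programme through the transcription factors NF-kB, AP-1 and IRF3, which induces cytokines, chemokines and their own inhibitors. The comparison without stimulation asks what the loss of TET proteins had changed before that second programme was started.

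Counts assigned to genes numbered 15398510 and 21503302 in the WT libraries and 13145625 and 17391512 in the TET iTKO libraries, so that 3 counts equalled a share of 1.4e-05% to 2.28e-05% of a library. All values below are counts divided by the size factor of the library (normalised counts), in the order replicate 1, replicate 2. Log2 fold changes are TET iTKO over WT with their standard error, and a gene was called when the adjusted p of DESeq2 was under 0.05. Alignments of low quality made up 13.5% of all reads that were counted or set aside in WT replicate 1, 10.9% in TET iTKO replicate 1, 4.8% in WT replicate 2 and 5.7% in TET iTKO replicate 2. WT replicate 1 also held 0 counts of Xist, the RNA of the inactive X chromosome, where the other 3 held 17088 to 22210, and none of the 4 libraries held counts of Y-linked genes. The part of these differences between libraries in the results was not tested, and the counts of calls left without each library are given below for several lists.

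Counts per gene did not check the deletions, because the loss of some exons need not lower the total of a gene. Tet1 (chromosome 10) was at 0 counts in both WT libraries and at 6 and 2 counts in the TET iTKO libraries. Tet2 (chromosome 3) stood at 595 and 708 in WT and 872 and 822 in TET iTKO, a log2 fold change of 0.37 ± 0.14 (adjusted p = 0.09). Tet3 (chromosome 6) stood at 1626 and 1558 in WT and 1814 and 1654 in TET iTKO (0.12 ± 0.12, adjusted p = 0.734). Neither of these passed the test. Within 10 Mb of these 3 loci, 10 of 87 tested genes were called around Tet3, 4 of 54 around Tet2 and 5 of 64 around Tet1 (11.5%, 7.41% and 7.81%), against 7.50% of all tested genes.

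Before any stimulation, 12 of 23 genes of NF-kB and its inhibitors, 8 of 22 chemoattractant receptors, 8 of 26 granule genes and 10 of 33 genes of the G2 and M phases were higher in TET iTKO BMDMs, while 17 of 38 lysosomal genes and 10 of 27 macrophage identity genes, the C1q chains among them, were lower. Of 12200 genes tested, 915 were called (7.50%): 534 were higher in TET iTKO (4.38%) and 381 were lower (3.12%). These shares are the background for every list below. The higher genes had a median log2 fold change of 1.02 and a median normalised count of 418, and 272 of them changed by at least 2-fold. The lower genes had a median of -0.62 and a median normalised count of 1349.8, and 75 of them changed by at least 2-fold. Genes called higher took 4% and 4.1% of all normalised counts in the WT libraries and 6.06% and 6.75% in the TET iTKO libraries. Genes called lower took 19% in each WT library and 14.6% and 13.4% in TET iTKO. The median log2 fold change of all tested genes was 0.01. The 2 groups did not overlap at 533 of the 534 higher genes, at all 381 lower genes and at 6532 of the 12200 tested. Separation of the groups at a gene named below therefore adds no support to its call. Of the 534 genes called higher, 25 held at most 3 counts in the WT libraries together, and the median of the others was 0.96. In bulk RNA, fewer cells of a type and less RNA per cell cannot be told apart.

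**Figure D1:**
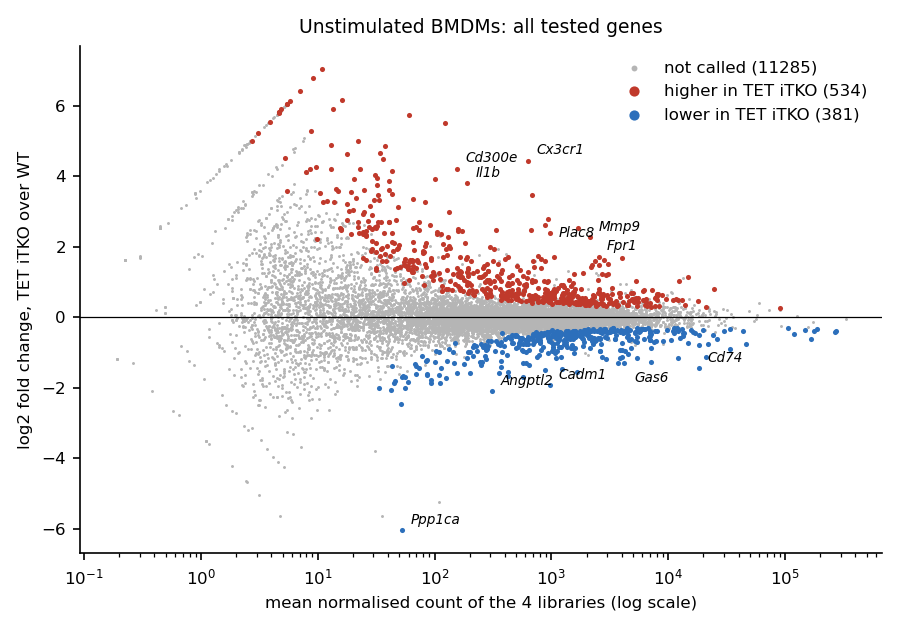
Each point is a tested gene, with its mean normalised count over the 4 unstimulated libraries on a log axis and its log2 fold change, TET iTKO over WT, on the vertical axis. The 534 genes called higher lie mostly at lower counts and reach larger changes than the 381 called lower.

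The 2 TET iTKO libraries did not move equally. TET iTKO replicate 2 was above replicate 1 at 434 of the 534 genes called higher, and below it at all but 71 of the 381 called lower, so that replicate 2 lay farther from WT at most called genes. Without TET iTKO replicate 2, 276 genes were called, and without WT replicate 1, WT replicate 2 or TET iTKO replicate 1 the numbers were 386, 434 and 752. Leaving out a library leaves its group with 1, whose spread is then taken to be that of the other groups. edgeR's quasi-likelihood test called 688 of 11441 genes (6.01%), and 653 of them were among the 915.

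The 12 largest increases and the 12 largest decreases were taken among called genes whose groups did not overlap and whose normalised counts averaged 50 or more. Among the increases were 3 receptors and surface proteins of monocytes and progenitors. Cx3cr1, the receptor of the chemokine fractalkine (chromosome 9:119957811-119977400, mm9), stood at 56 and 55 in WT and 758 and 1665 in TET iTKO (4.45 ± 0.54, adjusted p = 5.11e-14). Cd300e, an activating receptor of myeloid cells, stood at 16.9 and 15.3 in WT and 243 and 353 in TET iTKO (4.22 ± 0.34, adjusted p = 9.41e-32). Cd34, a sialomucin of blood progenitors, stood at 13.7 and 11.5 in WT and 71.6 and 310.1 in TET iTKO (3.93 ± 1.05, adjusted p = 0.0052). All 3 were far above both WT libraries in each TET iTKO library, and all were higher in replicate 2 than in replicate 1. Cd34 lost its call without TET iTKO replicate 2 or either WT library (adjusted p up to 0.138).

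The largest increase of all under this rule was that of Bmp1, a protease that cuts procollagens, at 4.23 and 0.764 in WT and 86.1 and 151 in TET iTKO (5.74 ± 0.70, adjusted p = 9.33e-14). Ifitm1, an interferon-induced membrane protein with close relatives in a gene cluster, stood at 8.46 and 2.29 in WT and 95.8 and 386 in TET iTKO (5.52 ± 1.13, adjusted p = 5.55e-05), and its 2 TET iTKO values differed from each other by more than those of Bmp1. Ccnd2, which encodes cyclin D2 of the G1 phase, stood at 109 and 115 in WT and 877 and 1608 in TET iTKO (3.47 ± 0.62, adjusted p = 1.8e-06). Serpinb2, an inhibitor of plasminogen activators, stood at 25.4 and 32.8 in WT and 234 and 237 in TET iTKO (3.00 ± 0.24, adjusted p = 7.66e-32), and its 2 TET iTKO values were close to each other. Igfbp7, a secreted binding protein of insulin-like growth factors whose annotated exons overlap those of Polr2b, stood at 27.5 and 13 in WT and 121 and 135 in TET iTKO (2.71 ± 0.39, adjusted p = 5.19e-10). The other 4 of the 12 (Il1b, Ltf, Ptgs1 and Plac8) are given with their groups below.

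Apart from Ppp1ca, the decreases were smaller. Angptl2, a secreted angiopoietin-like protein, fell from 419 and 589 to 126 and 111 (-2.10 ± 0.27, adjusted p = 2.79e-12). Cadm1, a cell adhesion molecule of the immunoglobulin family, stood at 1796 and 1277 in WT and 523 and 284 in TET iTKO (-1.93 ± 0.42, adjusted p = 0.000207). Sulf2, a sulfatase of heparan sulfate, stood at 181 and 172 in WT and 52.1 and 44.9 in TET iTKO (-1.86 ± 0.36, adjusted p = 1.84e-05). In these 3 genes each TET iTKO library was below both WT libraries by a wide margin, and the calls remained without each library in turn. Abca9, a transporter of the ABC family, stood at 107 and 69.5 in WT and 9.7 and 21.6 in TET iTKO (-2.46 ± 0.57), and Aig1, a membrane hydrolase, at 86.7 and 92.4 in WT and 23 and 21.6 in TET iTKO (-2.01 ± 0.50). Both lost their call without at least 1 library (adjusted p up to 0.145 and 0.108). P2ry12, a receptor of ADP, stood at 138 and 154 in WT and 36.4 and 47.6 in TET iTKO (-1.79 ± 0.47), and Qpct, a glutaminyl cyclase, at 735 and 1011 in WT and 332 and 202 in TET iTKO (-1.71 ± 0.47). Tm4sf19 (-1.87), Nanos1 (-1.84), Pianp (-1.73) and Npl (-1.69) made up the rest with Ppp1ca. P2ry12, Qpct, Tm4sf19, Nanos1, Pianp and Npl lost their calls without at least 1 library.

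Ppp1ca, the gene of a catalytic subunit of protein phosphatase 1, had the largest decrease by far (-6.05 ± 0.99, adjusted p = 1.18e-07), at 108 and 100.1 in WT and 2.43 and 0.899 in TET iTKO. At 6 h of KLA it stood at 2.06 and 3.31 in WT and 3.34 and 3.48 in TET iTKO. The 2 unstimulated WT libraries were thus the only 2 of the 8 with more than a few counts. Its annotated exons share 222 bases with Rad9, so its counts are uncertain.

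**Figure D2:**
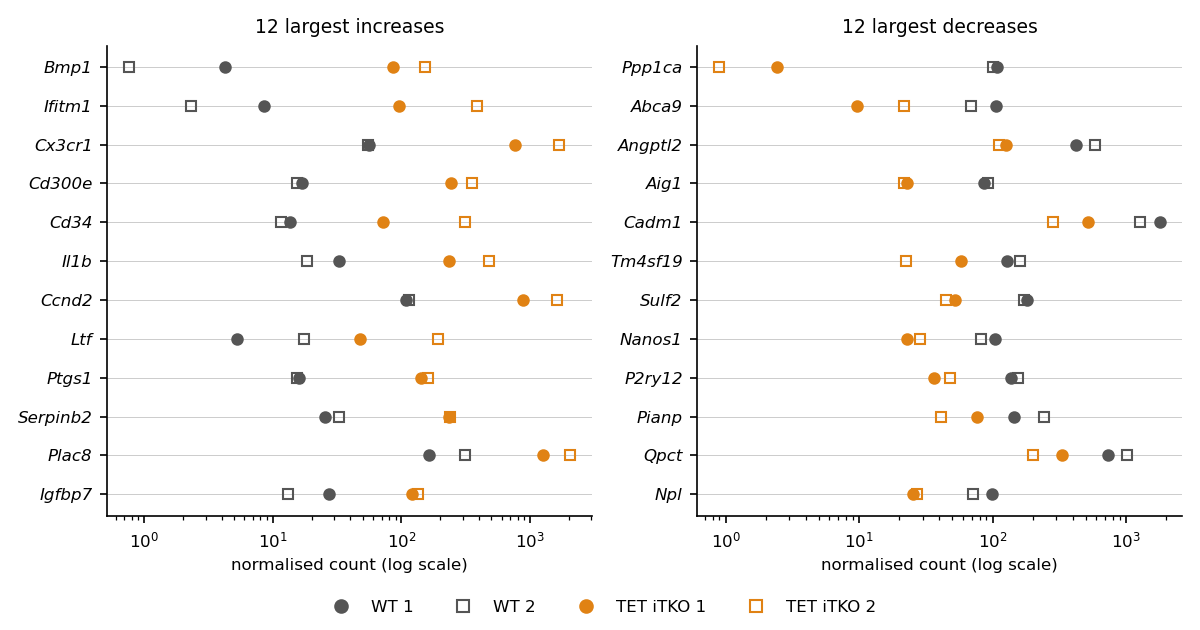
Each row is a gene of the 12 largest increases (left) or decreases (right), with a point for each unstimulated library at its normalised count on a log axis; grey marks WT and orange TET iTKO. No row has overlapping groups, because the rule of choice required it, and for Ifitm1, Cd34 and Ltf the 2 TET iTKO libraries lie far apart.

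Several groups of inflammatory genes held increases and no decreases. Among the subunits and feedback inhibitors of NF-kB, 12 of 23 tested members rose and none fell, with a median log2 fold change of 0.51. Socs3, an inhibitor of cytokine receptor signalling, stood at 381 and 312 in WT and 878 and 1210.0 in TET iTKO (1.60 ± 0.17, adjusted p = 5.81e-18). Traf1, an adaptor of TNF receptors, stood at 316 and 303 in WT and 720.4 and 835 in TET iTKO (1.33 ± 0.19, adjusted p = 2.03e-10). Birc3, a ubiquitin ligase that restrains cell death, stood at 793 and 867 in WT and 1519.6 and 1624 in TET iTKO (0.92 ± 0.14, adjusted p = 1.94e-09). The TET iTKO libraries were above both WT libraries in all 3, and replicate 2 was the higher of the pair. Of the 12 calls, 7, 7, 11 and 5 remained without WT replicate 1, WT replicate 2, TET iTKO replicate 1 and TET iTKO replicate 2 in turn, and edgeR called 10. KLA raised 16 of the 23 in the WT BMDMs of the other cohort.

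Of 19 cytokine genes tested, 4 rose and none fell (median 0.57). Il1b, the gene of the fever cytokine IL-1β, stood at 32.8 and 18.3 in WT and 233 and 478 in TET iTKO (3.82 ± 0.53, adjusted p = 1.93e-10), and the call remained without each library. Il1a stood at 63.4 and 107 in WT and 156 and 136 in TET iTKO (0.74 ± 0.21, adjusted p = 0.00732) and Ebi3, a subunit of IL-27, at 623 and 613 in WT and 825 and 1006 in TET iTKO (0.57 ± 0.16, adjusted p = 0.00757), and both lost their calls without at least 1 library. Il6 was called at very low counts: 0 and 1 counts in WT and 6 and 30 in TET iTKO, a ratio of 41.9 after scaling for library size, with an exact 95% interval of 7.06 to 1.7e+03 that covers counting error only. Its adjusted p was 0.0335 with DESeq2 and 0.163 with edgeR, and the call was also lost without TET iTKO replicate 2 or either WT library.

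Among CC and CXC chemokines, 6 of 22 rose and none fell. Cxcl3 and Cxcl2, attractants of neutrophils, stood at 15.9 and 23.7 in WT and 108 and 129 in TET iTKO (2.55 ± 0.31, adjusted p = 9.33e-14) and at 209 and 125 in WT and 439 and 381 in TET iTKO (1.31 ± 0.19, adjusted p = 1.86e-09). Pf4, platelet factor 4, stood at 3355 and 2454 in WT and 4350.3 and 4928 in TET iTKO (0.68 ± 0.17, adjusted p = 0.00194). The Cxcl2 and Cxcl3 calls remained without each library, and the Pf4 call was lost without WT replicate 2 or TET iTKO replicate 2 (adjusted p up to 0.237). edgeR called 2 of the 6.

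Of the enzymes and receptors of eicosanoids, the lipid mediators made from arachidonic acid, 5 of 17 rose and 1 fell. Both cyclooxygenase genes were higher: Ptgs1 stood at 15.9 and 15.3 in WT and 141 and 162 in TET iTKO (3.28 ± 0.47, adjusted p = 4.11e-10). Ptgs2, the inducible form, stood at 21.1 and 17.6 in WT and 84.9 and 139 in TET iTKO (2.54 ± 0.53, adjusted p = 9.37e-05). Ptgir, the receptor of prostacyclin, stood at 123 and 115 in WT and 246 and 282 in TET iTKO (1.16 ± 0.20, adjusted p = 8.94e-07). In WT BMDMs of the other cohort KLA raised Ptgs2 by 6.38 on the log2 scale and Ptgir by 1.53, whereas the value for Ptgs1 was -1.54 (adjusted p = 0.488). Pla2g7, which degrades platelet-activating factor, fell by a small amount (-0.36 ± 0.11, adjusted p = 0.0206), a call lost without 3 of the 4 libraries.

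Among genes of the inflammasome, the platform that activates caspase 1, 5 of 18 rose and none fell. Nlrp3, its sensor of membrane damage, stood at 517 and 438 in WT and 897 and 1051 in TET iTKO (1.03 ± 0.16, adjusted p = 4.26e-08). Naip2, a sensor of bacterial secretion systems with near-identical relatives, stood at 1799 and 1842 in WT and 2865 and 2712 in TET iTKO (0.61 ± 0.11). Casp4, the caspase that binds lipopolysaccharide, stood at 524 and 650.1 in WT and 899.9 and 885 in TET iTKO (0.60 ± 0.18). The calls of Nlrp3 and Naip2 remained without each library, and that of Casp4 did not (adjusted p up to 0.424).

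Of 24 Toll-like receptors and adaptors 3 rose (12.5%) and 1 fell. Cd14, the receptor that hands lipopolysaccharide to Toll-like receptor 4, stood at 1486 and 1257 in WT and 3316 and 5218 in TET iTKO (1.64 ± 0.32, adjusted p = 1.57e-05), and each TET iTKO library was above both WT libraries. Tlr2 (0.51 ± 0.13) and Tlr1 (0.39 ± 0.13) rose less. Ly86, the partner protein of the Toll-like protein RP105, fell from 1411 and 1912 to 859.9 and 674 (-1.12 ± 0.19, adjusted p = 2.74e-07). Of 25 immediate-early and AP-1 factors, Klf4 (0.96 ± 0.22, adjusted p = 0.00034) and Batf (0.67 ± 0.21, adjusted p = 0.0234) were called, a share of 8%. edgeR called Klf4 but not Batf (adjusted p = 0.0549 with edgeR), whose log2 fold change was 0.63 to 0.70 without each library in turn. Of 14 feedback inhibitors of MAP kinases, Dusp2 rose (1.46 ± 0.49) while Dusp7 (-0.72 ± 0.15) and Spry2 (-0.64 ± 0.18) fell.

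Of 41 interferon-stimulated genes tested, 6 rose (14.6%) and none fell, 40 had a positive log2 fold change and the median was 0.45. Besides Ifitm1 these included Ifitm6 at 145 and 167 in WT and 443 and 507 in TET iTKO (1.61 ± 0.22, adjusted p = 4.36e-11) and Ifi205, of a family of nucleic acid sensors, at 780.1 and 1111 in WT and 2037 and 2379 in TET iTKO (1.22 ± 0.35, adjusted p = 0.0112). Both belong to clusters of near-identical genes, so their counts are uncertain. The sum over the 41 was 221150.5 in WT replicate 1, 287843 in WT replicate 2, and 312942 and 332771 in TET iTKO, so that the gap between the 2 WT libraries was wider than that between WT replicate 2 and either TET iTKO library. Of these 6 calls, 2, 6, 4 and 2 remained without WT replicate 1, WT replicate 2, TET iTKO replicate 1 and TET iTKO replicate 2 in turn. At 6 h the median of the list was -0.10.

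Of 22 chemoattractant receptors, which guide leukocytes, 8 rose (36.4%) and 1, P2ry12, fell. Ccr2, the receptor by which monocytes leave the marrow, stood at 210.4 and 197 in WT and 695 and 1564 in TET iTKO (2.47 ± 0.63, adjusted p = 0.00279). Fpr1, a receptor of bacterial formyl peptides, stood at 1299 and 1063 in WT and 3268 and 4505 in TET iTKO (1.72 ± 0.14, adjusted p = 1.43e-29). With Cx3cr1 these were above WT in both TET iTKO libraries, and Ccr2 in replicate 2 was over 2 times its level in replicate 1. Of the 8 calls, 5, 5, 8 and 5 remained without WT replicate 1, WT replicate 2, TET iTKO replicate 1 and TET iTKO replicate 2 in turn, and Ccr2 was among those lost (adjusted p up to 0.239). In WT BMDMs of the other cohort KLA raised Fpr1 (3.46) and lowered Ccr2 (-1.47), and the value for Cx3cr1 was -0.10 (adjusted p = 0.962).

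Genes of granules and neutrophils, which developing myeloid cells express before they become macrophages, held 8 of 26 members that rose and 1 that fell, with a median of 1.19. Plac8, a small cysteine-rich protein of myeloid cells, stood at 163 and 309 in WT and 1256 and 2036 in TET iTKO (2.80 ± 0.64, adjusted p = 0.000421). Lcn2, which binds bacterial iron carriers, stood at 285 and 214 in WT and 1759.8 and 1301 in TET iTKO (2.62 ± 0.17, adjusted p = 4.2e-49). Ltf, the gene of lactoferrin, stood at 5.29 and 17.6 in WT and 47.3 and 192 in TET iTKO (3.36 ± 0.68, adjusted p = 4.89e-05). Lcn2 was the more even of these and was higher in replicate 1, while Plac8 and Ltf were higher in replicate 2 and lost their calls without it (adjusted p up to 0.117 and 0.398). Of the 8 calls higher, 5, 6, 8 and 3 remained without WT replicate 1, WT replicate 2, TET iTKO replicate 1 and TET iTKO replicate 2 in turn. The other 17 members were not called, among them Mpo, the gene of myeloperoxidase, at 77.2 and 260.5 in WT and 124 and 502 in TET iTKO (log2 fold change 0.89, adjusted p = 0.804), and Elane, the gene of neutrophil elastase, at 37 and 84.8 in WT and 31.5 and 104 in TET iTKO (log2 fold change 0.16, adjusted p = 0.961), whose groups overlapped and which were named after their values were seen. Ly6c2, a surface marker of inflammatory monocytes with a near-identical neighbour, fell instead (-0.45 ± 0.12, adjusted p = 0.0062). Among 18 tested genes of stem and progenitor cells Cd34 alone was called, and the median was 0.32. The medians of both lists after deletion of Tdg are given below.

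Genes by which macrophages are known moved the other way, with 10 of 27 lower and 3 higher (median -0.19). The list summed to 756486 and 758724 in WT and 650692 and 624319 in TET iTKO, most of it from Lyz2 and Apoe. Gas6, a ligand that bridges dying cells to their receptors, fell from 6045 and 5923 to 2826 and 2050.5 (-1.30 ± 0.15, adjusted p = 1.24e-15). Cebpa, a transcription factor of the myeloid lineage, stood at 1395 and 1655 in WT and 769 and 592 in TET iTKO (-1.17 ± 0.18, adjusted p = 4.54e-09). Mrc1, the mannose receptor, stood at 6601 and 4495 in WT and 2905 and 2197 in TET iTKO (-1.12 ± 0.19, adjusted p = 3.31e-07). All 3 were lower in each TET iTKO library, lowest in replicate 2, and stayed called without each library.

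The 3 genes that rose were Axl, Cebpb and Itgam. Axl, a receptor of Gas6, stood at 899.5 and 1429 in WT and 3158 and 3918 in TET iTKO (1.60 ± 0.45, adjusted p = 0.0088), whereas Mertk, another receptor of Gas6, fell (-0.60 ± 0.18, adjusted p = 0.0198), and both calls were lost without at least 1 library. Cebpb, a factor of inflammatory macrophages, rose less (0.54 ± 0.12), as did Itgam, the gene of CD11b (0.30 ± 0.10). Of the 10 calls lower, 8, 7, 10 and 6 remained without WT replicate 1, WT replicate 2, TET iTKO replicate 1 and TET iTKO replicate 2 in turn, and edgeR called 8.

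The 3 chains of C1q, the first component of complement, fell together. C1qa stood at 15400.0 and 17793 in WT and 8027 and 6861 in TET iTKO (-1.16 ± 0.12, adjusted p = 7.38e-19), C1qb at 25878 and 28853 in WT and 16712 and 15604 in TET iTKO (-0.76 ± 0.11) and C1qc at 16914 and 20223 in WT and 11213 and 11086 in TET iTKO (-0.74 ± 0.11). The groups were far apart in each, and the 3 calls remained without each library. Other complement genes rose: C3, the central component, stood at 18976 and 17192 in WT and 34026 and 29403 in TET iTKO (0.81 ± 0.11, adjusted p = 7.15e-12) and Cd55, a protein that shields cells from complement, at 1354 and 969 in WT and 3027 and 3487 in TET iTKO (1.49 ± 0.16, adjusted p = 2.26e-17). In all, 3 of 18 complement genes rose and 4 fell.

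Scavenger and phagocytic receptors were mixed, with 4 of 24 higher and 4 lower. Cd5l, a secreted scavenger protein of macrophages, stood at 2106 and 1683 in WT and 5985 and 6193 in TET iTKO (1.69 ± 0.16, adjusted p = 7.16e-24). Scarf1 rose as well (0.54 ± 0.15). Colec12 (-0.85 ± 0.23) and Marco (-0.61 ± 0.17) fell, but neither was called by edgeR. Among C-type lectins and Fc receptors, the activating receptor Fcgr3 fell from 5109.7 and 4886 to 3379 and 2698 (-0.72 ± 0.14, adjusted p = 8.46e-06), while Clec4a1 (0.64 ± 0.12), Clec4a2 (0.63 ± 0.15) and Clec4e (0.36 ± 0.11) rose. Clec4a1 and Clec4a2 are close relatives, so reads may have been split between them.

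**Figure D3:**
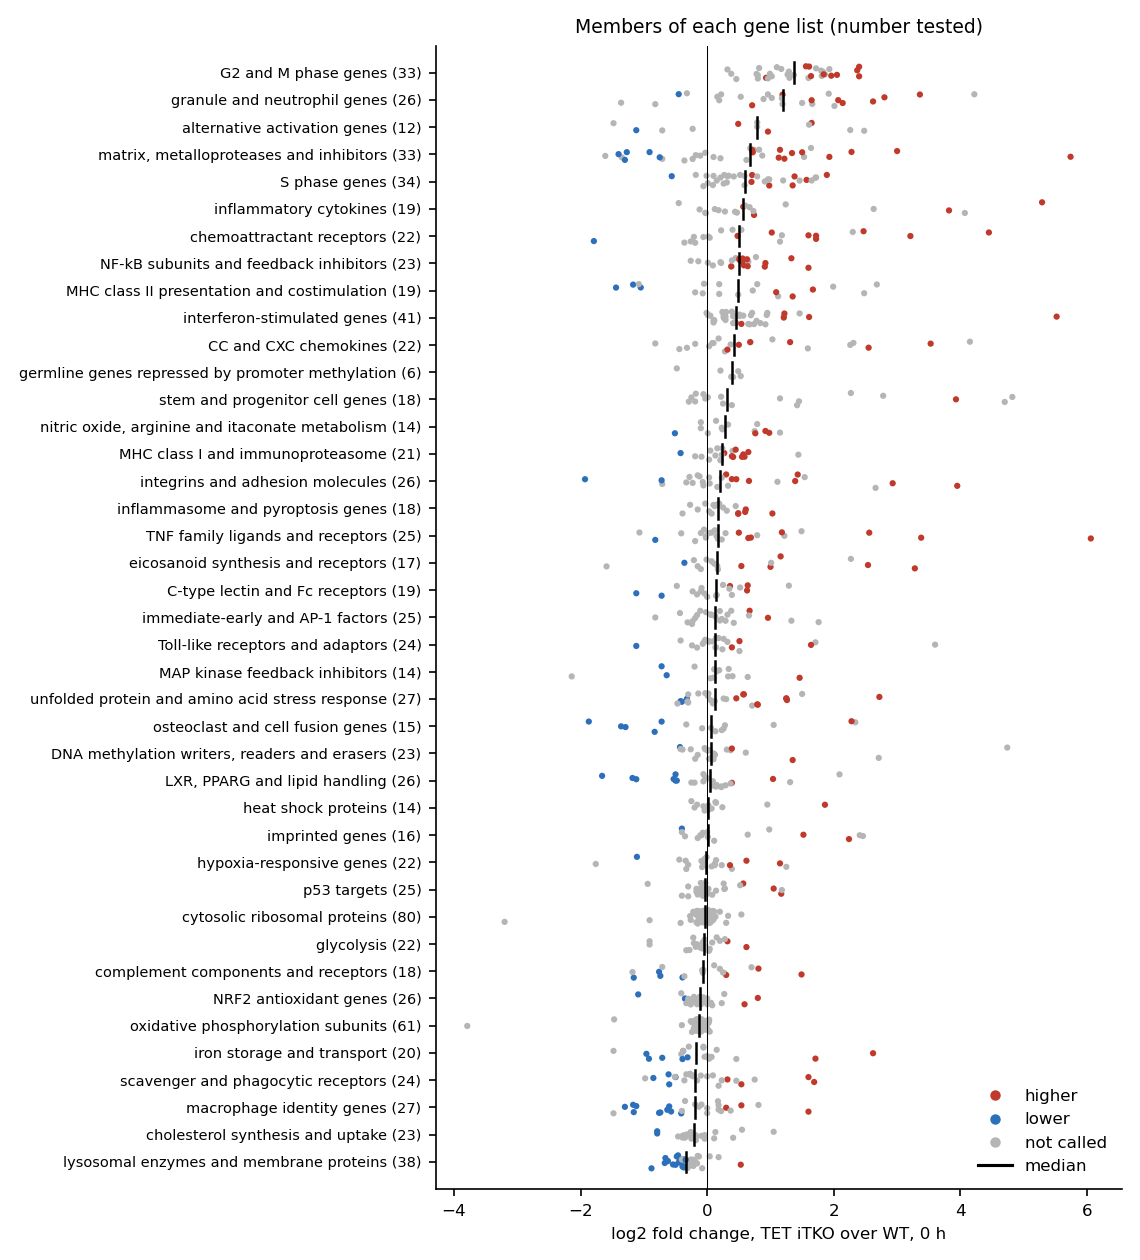
Each row is a gene list, each point a tested member at its log2 fold change (TET iTKO over WT, 0 h) and the black bar the median, with the number of tested members in brackets. Red and blue mark members called higher and lower, and lists run from lysosomal genes, with 17 of 38 lower, at the bottom to genes of the G2 and M phases at the top.

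Of 19 genes of MHC class II presentation and costimulation 3 fell and 3 rose. Cd74, the invariant chain, stood at 22816 and 30882 in WT and 9354 and 10389 in TET iTKO (-1.44 ± 0.15, adjusted p = 7.01e-20), H2-Aa at 5841 and 9218 in WT and 3192 and 3494 in TET iTKO (-1.17 ± 0.35, adjusted p = 0.0162) and H2-Ab1 at 5009 and 7176 in WT and 2962 and 2921 in TET iTKO (-1.05 ± 0.16, adjusted p = 4.79e-09). WT replicate 1 was the lower of the WT pair in all 3, and both TET iTKO libraries were below it. H2-Aa and H2-Ab1 share exonic bases in the annotation. Ciita, the activator that switches class II genes on, was instead higher at low counts, at 13.7 and 9.93 in WT and 36.4 and 37.8 in TET iTKO (1.67 ± 0.46, adjusted p = 0.00757). The costimulatory molecules Cd86 at 164 and 258 in WT and 543 and 541 in TET iTKO (1.35 ± 0.23, adjusted p = 6.53e-07) and Cd83 at 59.2 and 83.3 in WT and 127 and 177 in TET iTKO (1.09 ± 0.36, adjusted p = 0.0395) were higher too. Without TET iTKO replicate 2 the calls of Ciita and Cd83 were lost, as was that of H2-Aa. H2-Eb1, which the rule for named genes did not choose, stood at 2116 and 3452 in WT and 1220.1 and 1419 in TET iTKO (log2 fold change -1.08, adjusted p = 0.0517) and was not called.

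Genes of class I presentation and the immunoproteasome leaned higher, with 8 of 21 called higher and 1 lower (median 0.24). H2-Q4, a class I gene of a near-identical family, stood at 5909 and 6820.3 in WT and 9968 and 9989 in TET iTKO (0.65 ± 0.11, adjusted p = 1.41e-06). Nlrc5, the activator of class I genes, stood at 1245 and 1442 in WT and 1971 and 2067 in TET iTKO (0.59 ± 0.19), and Psmb9, an immunoproteasome subunit, at 1027 and 1220.0 in WT and 1528 and 1816 in TET iTKO (0.57 ± 0.16). Of the 8 calls, 1, 4, 3 and 1 remained without WT replicate 1, WT replicate 2, TET iTKO replicate 1 and TET iTKO replicate 2 in turn, and edgeR called 2.

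Lysosomal genes leaned lower. Of 38 enzymes and membrane proteins of the lysosome, all tested, 17 fell (44.7%), 1 rose and 35 had a negative log2 fold change, with a median of -0.33. The changes were small: Gusb, β-glucuronidase, moved most, at 9244 and 9115 in WT and 5409 and 4593 in TET iTKO (-0.88 ± 0.13, adjusted p = 9.34e-10). Naglu, which degrades heparan sulfate, stood at 2564 and 2908 in WT and 1871 and 1566 in TET iTKO (-0.67 ± 0.14), and Man2b1, a mannosidase, at 8546 and 8638 in WT and 5777 and 5136 in TET iTKO (-0.66 ± 0.12). Ctsc, the protease that activates granule enzymes, was the 1 member that rose (0.53 ± 0.12, adjusted p = 0.000641). The sum over the list was 1586243 and 1611679 in WT and 1285399 and 1155135 in TET iTKO, and the groups did not overlap. Of the 17 calls, 5, 5, 16 and 3 remained without WT replicate 1, WT replicate 2, TET iTKO replicate 1 and TET iTKO replicate 2 in turn, and edgeR called 12. At 6 h of KLA 13 of the 38 were lower in TET iTKO and 1 was higher.

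Fatty acid binding proteins led the decreases among genes of lipid handling, where 7 of 26 fell and 2 rose. Fabp7 stood at 534 and 755 in WT and 239 and 172 in TET iTKO (-1.66 ± 0.23, adjusted p = 1.88e-10), Fabp4, a target of the nuclear receptor PPARG, at 3499 and 4614 in WT and 2241 and 1351 in TET iTKO (-1.18 ± 0.20, adjusted p = 2.66e-07) and Fabp5 at 27829.7 and 29475 in WT and 16994 and 9452 in TET iTKO (-1.12 ± 0.35, adjusted p = 0.024). TET iTKO replicate 2 was the lowest library in all 3, and Fabp5 lost its call without either WT library (adjusted p up to 0.29). Of the 7 calls lower, 5, 3, 7 and 3 remained without WT replicate 1, WT replicate 2, TET iTKO replicate 1 and TET iTKO replicate 2 in turn. Acsl1, which activates fatty acids and is raised by KLA (3.61 in the other cohort), stood at 3384 and 3556 in WT and 7034 and 7250.0 in TET iTKO (1.04 ± 0.11, adjusted p = 9.64e-20). Nr1h3, which encodes LXRα, rose slightly (0.39 ± 0.14, adjusted p = 0.0485), a call lost without any 1 of the 4 libraries. Sqle, an enzyme of cholesterol synthesis, fell (-0.79 ± 0.24, adjusted p = 0.0156), a call lost without any 1 of the 4 libraries.

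Iron genes leaned lower as well, with 6 of 20 lower and 2, Lcn2 and Spic, higher. Tfrc, the transferrin receptor, stood at 5535 and 4551 in WT and 2575 and 2764 in TET iTKO (-0.92 ± 0.13, adjusted p = 1.19e-09), Steap3, a ferrireductase, at 1275 and 1396 in WT and 771 and 609 in TET iTKO (-0.96 ± 0.18, adjusted p = 1.12e-05) and Slc11a2, an iron transporter of endosomes, at 2274 and 2401 in WT and 1664 and 1202 in TET iTKO (-0.71 ± 0.15). Of the 6 calls lower, 3, 3, 3 and 2 remained without WT replicate 1, WT replicate 2, TET iTKO replicate 1 and TET iTKO replicate 2 in turn. Spic, a transcription factor of iron-recycling macrophages, was higher at 53.9 and 100.1 in WT and 211 and 298 in TET iTKO (1.71 ± 0.28, adjusted p = 1.05e-07).

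Genes of osteoclasts, the bone-resorbing relatives of macrophages, fell in 5 of 15 tested. Ctsk, the collagen-cutting cathepsin K, stood at 721 and 899 in WT and 400.2 and 263 in TET iTKO (-1.29 ± 0.25, adjusted p = 1.99e-05), and Atp6v0d2, a proton pump subunit needed for cell fusion, at 750.5 and 1095 in WT and 421 and 302 in TET iTKO (-1.36 ± 0.27, adjusted p = 2.12e-05). Tm4sf19 stood at 129 and 160.4 in WT and 58.2 and 22.5 in TET iTKO. These were lowest in TET iTKO replicate 2. Of the 5 calls lower, 4, 2, 4 and 4 remained without WT replicate 1, WT replicate 2, TET iTKO replicate 1 and TET iTKO replicate 2 in turn. The 1 member that rose was Mmp9, given next.

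Proteases, inhibitors and matrix proteins changed in both directions, with 11 of 33 higher and 5 lower. Mmp9, the protease gelatinase B, stood at 912 and 560.0 in WT and 2826 and 4311 in TET iTKO (2.28 ± 0.53, adjusted p = 0.000595), a call lost without WT replicate 2 or TET iTKO replicate 2 (adjusted p up to 0.132). The 2 inhibitors Timp1, at 623 and 450.0 in WT and 278 and 130.3 in TET iTKO (-1.40 ± 0.30, adjusted p = 0.000168), and Timp2, at 9914 and 10196 in WT and 5017 and 3331 in TET iTKO (-1.27 ± 0.17, adjusted p = 2.88e-11), fell. Plau, the plasminogen activator urokinase, fell from 5134 and 5368 to 2289.7 and 1992 (-1.30 ± 0.15, adjusted p = 1.21e-14), while its inhibitor Serpinb2 rose. Of the 11 calls higher, 8, 6, 10 and 6 remained without WT replicate 1, WT replicate 2, TET iTKO replicate 1 and TET iTKO replicate 2 in turn, and 4, 5, 5 and 4 of the 5 lower.

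Of 26 integrins and adhesion molecules, 8 rose and 2 fell. Itgb7, the integrin β7 chain of cells that home to the gut, stood at 1012 and 1349 in WT and 2742 and 3641 in TET iTKO (1.43 ± 0.18, adjusted p = 5.38e-13). Pecam1, a junction protein of leukocytes and endothelium, stood at 3.17 and 4.58 in WT and 34 and 87.2 in TET iTKO (3.95 ± 0.80) and Amica1, an adhesion molecule of leukocytes, at 4.23 and 6.88 in WT and 40 and 45.8 in TET iTKO (2.93 ± 0.78), both with few counts in WT. Of the 8 calls, 3, 4, 6 and 2 remained without WT replicate 1, WT replicate 2, TET iTKO replicate 1 and TET iTKO replicate 2 in turn, and edgeR called 4. Cd9, a tetraspanin, fell (-0.72 ± 0.17, adjusted p = 0.000564), as did Cadm1. Among TNF family ligands and receptors 7 of 25 rose and 1, Tnfsf12 (-0.82 ± 0.19), fell. The ligands Tnfsf8 at 1.06 and 6.11 in WT and 35.2 and 43.1 in TET iTKO (3.38 ± 0.97), Tnfsf4 at 7.4 and 8.4 in WT and 30.3 and 62.9 in TET iTKO (2.56 ± 0.66) and Tnfsf15 at 62.4 and 51.9 in WT and 127 and 130.3 in TET iTKO (1.18 ± 0.35) stood at no more than 62.4 in WT, and 1 of the 7 calls remained without WT replicate 1, WT replicate 2 or TET iTKO replicate 2.

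Cell cycle genes were higher, most so in TET iTKO replicate 2. All 33 tested genes of the G2 and M phases had a positive log2 fold change (median 1.37), and 10 were called. Ccna2, cyclin A2, stood at 34.9 and 33.6 in WT and 89.7 and 262 in TET iTKO (2.37 ± 0.50, adjusted p = 0.000119), Nusap1, a spindle protein, at 15.9 and 12.2 in WT and 38.8 and 107 in TET iTKO (2.40 ± 0.56, adjusted p = 0.000612) and Plk1, a mitotic kinase, at 9.51 and 13.8 in WT and 27.9 and 95.3 in TET iTKO (2.40 ± 0.72, adjusted p = 0.016). The list summed to 1840.3 and 1981 in WT and 2876 and 6302 in TET iTKO: TET iTKO replicate 1 was above both WT libraries, and replicate 2 was over 2 times as high again. None of the 10 calls remained without TET iTKO replicate 2, and 2, 3 and 10 remained without WT replicate 1, WT replicate 2 and TET iTKO replicate 1. Exons of Ccna2 and Nusap1 overlap those of neighbouring genes.

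Among S phase genes 7 of 34 rose and Pcna, the sliding clamp of DNA polymerase, fell from 4895 and 5756 to 3612 and 3638 (-0.56 ± 0.11, adjusted p = 3.62e-05). Cdc6 (1.89 ± 0.56) and Mcm7 (1.38 ± 0.40), which license DNA replication, and E2f8 (1.57 ± 0.51) were each highest in TET iTKO replicate 2. Leaving out 1 library took these log2 fold changes to as little as 1.28, 0.33 and 0.96. The 7 calls depended on TET iTKO replicate 2 and on WT replicate 2, and most of them on WT replicate 1 as well. edgeR called 2 of the 7. At 6 h, 12 of 33 G2 and M phase genes were higher in TET iTKO (median 1.42).

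Of 27 genes of the unfolded protein and amino acid responses 9 rose and 3 fell. The 9 were Asns, Atf4, Ern1, Mthfd2, Phgdh, Psat1, Sesn2, Slc7a11 and Trib3, and apart from Ern1, a sensor of unfolded proteins, they make or import amino acids and folate units or answer their shortage. Phgdh and Psat1, enzymes of serine synthesis, stood at 5.29 and 16 in WT and 30.3 and 112 in TET iTKO (2.72 ± 0.71) and at 67.7 and 63.4 in WT and 84.9 and 225 in TET iTKO (1.25 ± 0.40). Trib3, a target of the factor ATF4, stood at 100.4 and 125 in WT and 256 and 286 in TET iTKO (1.26 ± 0.27, adjusted p = 0.000146). Phgdh and Psat1 were highest in TET iTKO replicate 2, and all 3 calls were lost without it. The 3 that fell were chaperones of the endoplasmic reticulum: Calr (-0.42 ± 0.10), Hsp90b1 (-0.40 ± 0.11) and Hspa5 (-0.32 ± 0.11). edgeR called 4 of the 9 and 1 of the 3. Of the 9, 3, 6, 7 and 3 remained without WT replicate 1, WT replicate 2, TET iTKO replicate 1 and TET iTKO replicate 2 in turn. The calls that remained among the 3 chaperones, in the same order, were 0, 2, 1 and 0. Slc7a11, a cystine importer shared with the NRF2 list, rose (0.80 ± 0.21), as did Gsr, glutathione reductase (0.59 ± 0.11, adjusted p = 9.56e-06), while Gsta3 (-1.09 ± 0.36) and Taldo1 (-0.35 ± 0.10) fell among the 26 NRF2 genes. Of 25 p53 targets Btg2 (1.17 ± 0.25), Pmaip1 (1.05 ± 0.34) and Sesn2 (0.57 ± 0.19) rose and none fell, with a list median of -0.03. Among 14 heat shock genes Hspa1b alone rose (1.86 ± 0.56). edgeR called 1 of the 3 p53 targets, Btg2, and did not call Hspa1b. Leaving out 1 library took the log2 fold changes of Btg2, Pmaip1, Sesn2 and Hspa1b to as little as 0.83, 0.47, 0.44 and 1.26.

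None of 61 tested subunits of oxidative phosphorylation was called by DESeq2 (3 had an unadjusted p under 0.05), although 54 had a negative log2 fold change (median -0.13): Atp5b stood at 11373 and 10873 in WT and 9758 and 10315 in TET iTKO (-0.15 ± 0.10, adjusted p = 0.512) and Sdha at 4995 and 4881 in WT and 4389 and 4353 in TET iTKO (-0.18 ± 0.10, adjusted p = 0.363). None of 80 cytosolic ribosomal protein genes was called (2 unadjusted, median -0.03), with Rpl4 at 9109.6 and 8329.8 in WT and 8043 and 9745 in TET iTKO (0.03 ± 0.13) and Rps3 at 8250.2 and 7973 in WT and 7706 and 8767 in TET iTKO (0.02 ± 0.13). edgeR also called none in either list. Of 22 glycolysis genes the glucose transporter gene Slc2a1 (0.62 ± 0.14, adjusted p = 0.000572) and Hk2 (0.32 ± 0.11, adjusted p = 0.0478) rose, and the list median was -0.05. edgeR called Slc2a1 but not Hk2 (adjusted p = 0.0705 with edgeR). Leaving out 1 library took their log2 fold changes to as little as 0.47 and 0.26. Vegfa, the growth factor of vessels, stood at 142 and 154 in WT and 334 and 323 in TET iTKO (1.15 ± 0.22, adjusted p = 7.5e-06), and with Slc2a1 and Hif1a (0.36 ± 0.11) made up 3 of 22 hypoxia-responsive genes that rose, against Mxi1, which fell (-1.11 ± 0.27). Hif1a was not called by edgeR (adjusted p = 0.0739). The arginine importers Slc7a1 at 254 and 358 in WT and 581 and 631 in TET iTKO (0.98 ± 0.18, adjusted p = 7.56e-06) and Slc7a2 at 267 and 315 in WT and 569 and 533 in TET iTKO (0.92 ± 0.17, adjusted p = 7.17e-06) and the superoxide dismutase Sod2 (0.76 ± 0.10, adjusted p = 7.15e-12) rose, while Sms, spermine synthase, fell (-0.51 ± 0.17). Among 12 tested genes of alternative activation Chi3l3 at 51.8 and 125 in WT and 207 and 354 in TET iTKO (1.65 ± 0.37), whose exons overlap a relative, and Il4ra (0.49 ± 0.10) rose beside Klf4, and Mrc1 fell.

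Of 23 writers, readers and erasers of DNA methylation 2 rose (8.7%) and 1 fell (4.35%). Uhrf1, which guides the maintenance methyltransferase, rose (1.35 ± 0.40, adjusted p = 0.0136) at 75 and 68.8 in WT and 118 and 247 in TET iTKO, as did Kdm2a, which binds unmethylated CpG (0.39 ± 0.11, adjusted p = 0.00629). Dnmt3a, a de novo methyltransferase, fell from 2801 and 3188 to 2409 and 2055 (-0.43 ± 0.13, adjusted p = 0.0136), and the 3 calls were lost without TET iTKO replicate 2. Of 24 germline genes that promoter methylation keeps silent, 14 had 0 counts in all 4 libraries, 6 were tested and none was called by DESeq2 or edgeR, with 0 at an unadjusted p under 0.05. The best measured, Tdrkh at 144 and 173 in WT and 138 and 90.8 in TET iTKO and Piwil2 at 59.2 and 52.7 in WT and 72.8 and 75.5 in TET iTKO, had log2 fold changes of -0.48 ± 0.30 and 0.41 ± 0.40. Of 16 tested imprinted genes Dcn and Ppp1r9a rose (12.5%) and Igf2r fell (6.25%) (-0.40 ± 0.13, adjusted p = 0.033).

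Markers of other blood and marrow cells summed to far less than the macrophage identity genes in every library. Of 9 B cell markers 7 were tested, 3 rose and 1 fell, and the list summed to 666 and 850.2 in WT and 492 and 728 in TET iTKO, most of it from Cd22. Cd79a stood at 9.51 and 9.17 in WT and 36.4 and 85.4 in TET iTKO, Cd79b at 4.23 and 3.06 in WT and 34 and 82.7 in TET iTKO and Ms4a1 at 5.29 and 8.4 in WT and 10.9 and 92.6 in TET iTKO, each highest in TET iTKO replicate 2, and these 3 calls were lost without that library. Cd22 fell (-0.92 ± 0.22). No T and NK cell marker was called by DESeq2 or edgeR among 3 tested (1 at an unadjusted p under 0.05), with Cd4 at 277 and 435 in WT and 274 and 279 in TET iTKO and Lck at 2.11 and 4.58 in WT and 3.64 and 32.4 in TET iTKO, and none of 8 erythroid markers had enough counts to be tested, 6 of them at 0 in all 4 libraries. For megakaryocytes Vwf stood at 341 and 377 in WT and 318 and 267 in TET iTKO and Itga2b at 5.29 and 11.5 in WT and 19.4 and 15.3 in TET iTKO, with no call by either tool (0 unadjusted). For mast cells and basophils Hdc, which makes histamine, rose at 1.06 and 13.8 in WT and 34 and 48.5 in TET iTKO, and the list summed to 3.17 and 19.9 in WT and 35.2 and 67.4 in TET iTKO. No eosinophil marker was called by either tool (0 unadjusted), with Prg2 at 1.06 and 17.6 in WT and 0 and 17.1 in TET iTKO and Siglec5 at 3.17 and 1.53 in WT and 3.64 and 8.99 in TET iTKO. Of 5 dendritic cell markers tested Cd24a (0.75 ± 0.26) and Ccr7 rose, and the list summed to 253 and 306 in WT and 268 and 443 in TET iTKO. Dcn, a stromal proteoglycan, stood at 205 and 160.4 in WT and 467 and 575 in TET iTKO (1.52 ± 0.19, adjusted p = 2.63e-13) and made up most of the stromal list, which summed to 228 and 181 in WT and 547 and 599 in TET iTKO. Of 3 endothelial markers tested Pecam1 rose, and the list summed to 1354 and 1931 in WT and 1708 and 1414 in TET iTKO, with overlapping groups. Cd79a, Cd79b, Ms4a1 and the summed mast cell and dendritic cell lists were thus highest in TET iTKO replicate 2, which also had the highest sums of granule, G2 and M phase genes, and their part in those results was not tested.

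Of the 6 genes next to enhancers that the study had chosen in these cells, Il1b, Il6, Ptgs2 and Batf were called higher without stimulation, and Alcam at 3483 and 3481 in WT and 3048 and 2691 in TET iTKO (-0.28 ± 0.12, adjusted p = 0.157) and Mdfic at 5157 and 5614 in WT and 5096 and 4420.1 in TET iTKO (-0.18 ± 0.14, adjusted p = 0.614) were not called. That choice was made on these cells and is no independent evidence of direction. Of the genes called higher, edgeR called Il1b and Ptgs2 but not Il6 or Batf.

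How far the called genes are genes that KLA controls was read in libraries that share none with this comparison, the WT BMDMs of the Tdg cohort at 6 h of KLA against 0 h. KLA raised 5.33% and lowered 3.33% of the 11543 genes tested in both. Of 528 genes higher in unstimulated TET iTKO BMDMs, KLA raised 191 (36.2%), which were 31.1% of the KLA-raised genes, and lowered 13. The other 324 (61.4%) passed neither way, among them Cx3cr1, Plac8, Ccnd2, Cd34, Ptgs1, Lcn2, Axl and the 10 called genes of the G2 and M phases. Passing neither way need not mean no response. In WT BMDMs of the Tet cohort Lcn2 stood at 285 and 214 at 0 h and at 1316 and 1290.1 at 6 h. With the KLA response of that cohort, whose WT libraries at 0 h are those compared here, 187 of the 534 higher genes (35%) passed neither way. Of 381 genes lower in TET iTKO, KLA lowered 83 (21.8%), which were 21.6% of the KLA-lowered genes, raised 14 and left 284 (74.5%) uncalled. None of the 17 lowered lysosomal genes was called lower by KLA, whereas Angptl2 (-2.89), Gas6 (-1.78), Plau (-2.76) and Fabp4 (-1.83) were. The median KLA response was 0.95 over the higher genes, -0.53 over the lower genes and -0.03 over all tested genes.

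**Figure D4:**
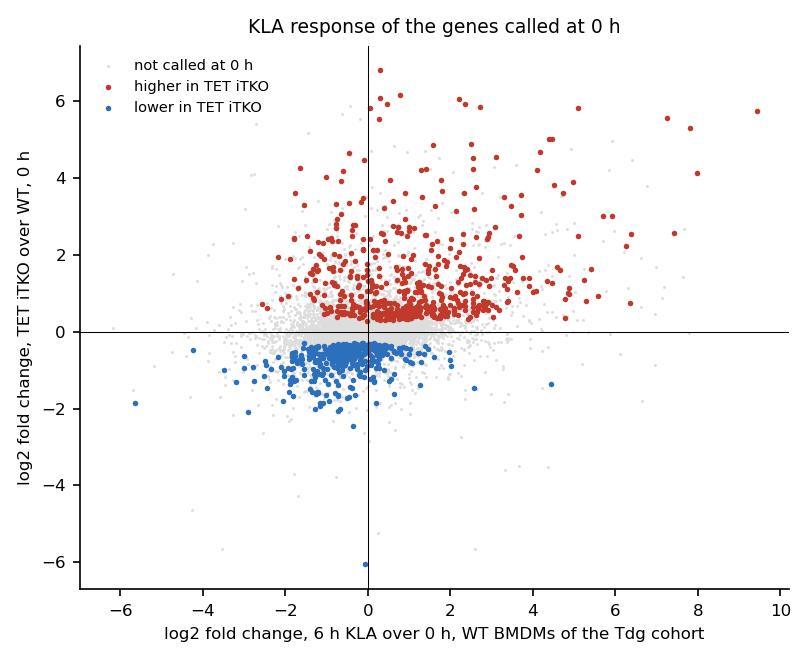
The horizontal axis is the log2 fold change between 6 h of KLA and 0 h in WT BMDMs of the Tdg cohort, and the vertical axis the log2 fold change between TET iTKO and WT at 0 h; each point is a gene. Genes higher in TET iTKO spread to the right, with a median KLA response of 0.95, and genes lower in TET iTKO lean left, with a median of -0.53.

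After 6 h of KLA, in libraries other than those at 0 h, 493 of the 534 higher genes and 370 of the 381 lower genes kept the sign of their difference between genotypes, as did 8038 of 11634 tested genes, and 210 and 209 were called in the same direction, where 6.58% of those tested were called in all. Libraries with the same genotype and number at 0 h and 6 h deviated together from their group means (r = 0.383 and 0.39 across 10465 genes). WT replicate 1 held 0 counts of Xist at 6 h as it did at 0 h, where the other libraries of the cohort at 6 h held 17492 to 20559. Whether the times share cultures or animals is not given, so the values at 6 h may not be independent of those at 0 h. The median difference was 1.02 at 0 h and 0.54 at 6 h over the higher genes, and -0.62 and -0.49 over the lower genes. These genes were chosen by their difference at 0 h, so smaller medians at 6 h can follow from that choice alone. Macrophage identity genes had a median of -0.46 at 6 h with 12 of 25 called lower, and granule and neutrophil genes a median of 1.5 with 11 of 23 called higher. NF-kB genes had a median of 0.21 with 3 of 23 called.

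The inducible deletion of Tdg, which encodes the glycosylase that excises 5-formylcytosine and 5-carboxylcytosine, gave no called gene at 0 h among 15026 tested by DESeq2, of which 265 had an unadjusted p under 0.05, and none among 11118 by edgeR, of which 125 had one. At the 534 genes higher in TET iTKO, its median log2 fold change was 0.16 and 342 had the same sign. At the 381 lower genes the median was -0.01 and 192 had the same sign, and over all tested genes it was 0.05, with the same sign at 6638 of 12196. By list, its median was 1.06 for granule and neutrophil genes and 0.60 for stem and progenitor cell genes. In TET iTKO these medians were 1.19 and 0.32, so a higher median of these lists was not particular to TET iTKO. For G2 and M phase genes the Tdg median was 0.04 and for NF-kB genes 0.07, against 1.37 and 0.51 in TET iTKO. For macrophage identity genes it was -0.14, against -0.19 in TET iTKO, so a lower median of that list was not particular to TET iTKO either. The 4 libraries of that comparison held 4982950 to 19405606 counts.

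The starts of the higher genes held less CpG than those of all tested genes. CpG is the dinucleotide on which methylation and TET proteins act. CpGs were counted in mm9 within 300 bases of sequence, 250 before and 50 after the annotated start, for 515 of 534 higher genes, 368 of 381 lower genes and 11404 of 12200 tested genes. The median was 11 CpGs for higher genes, 18 for lower genes and 19 for all tested. The ratio of observed to expected CpG was under 0.4 at 43.5% of higher genes, 26.1% of lower genes and 19.2% of all tested. The higher genes that KLA did not raise had a median of 10 CpGs, with 45.2% under that ratio, and those that KLA raised a median of 11.5, with 39.8%. Where the mean normalised count was 500 or more, the shares were 42.6% for higher, 27.5% for lower and 15% for all tested genes, and under 500 they were 44.3%, 21% and 22.6%.

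**Figure D5:**
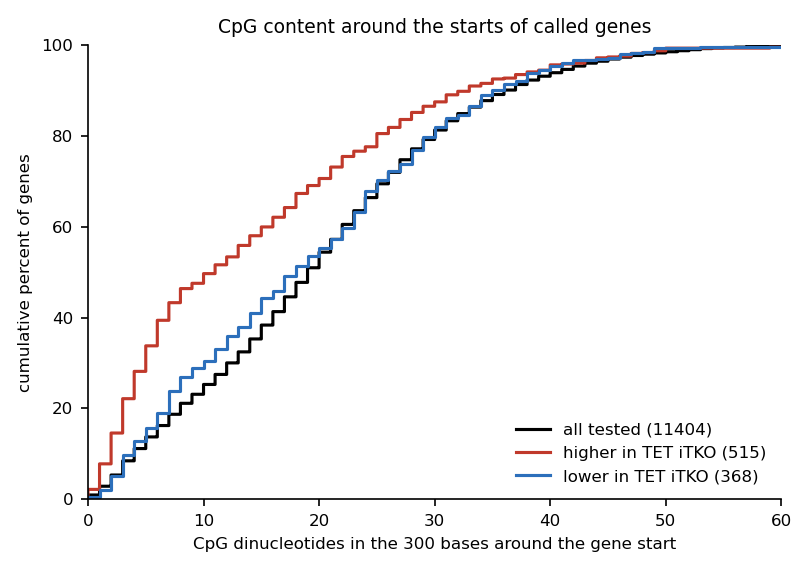
The horizontal axis is the number of CpG dinucleotides in the 300 bases around the annotated gene start and the vertical axis the cumulative percent of genes with at most that number. The curve of genes higher in TET iTKO lies above the others, with a median of 11 CpGs against 18 for lower genes and 19 for all tested genes.

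The same windows were searched on both strands for short motifs, as a description only. A letter string of the NF-kB site (GGGAATTTC, GGGAATTCC or GGGACTTTC) stood in 3.5% of higher genes, 1.09% of lower genes and 0.921% of all tested, and in 6.99% of the higher genes that KLA raised against 1.55% of those it did not. An AP-1 string (TGAGTCA or TGACTCA) stood in 6.21%, 6.25% and 3.54%, and the core of the interferon response element (GAAANNGAA) in 12.6%, 7.34% and 7.93%. The PU.1 string (GAGGAA) stood in 35%, 30.4% and 27.6%, and the TATA box (TATAAA) in 10.7%, 7.07% and 7.68%. Strings of the interferon element and PU.1 may share bases, short strings arise often without being bound, and distal enhancers were not searched.

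Windows of 6 genes from RefSeq's promoter table for the build GRCm38.p6, not the mm9 windows counted above, are printed as examples. They are the 3 largest increases and the 3 largest decreases by the rule above for which that table holds a sequence. They run 5′ to 3′ along the gene's strand, with every CpG in capitals. The increases had 5, 5 and 6 CpGs. The decreases had 2, 9 and 32, so that low CpG content was not particular to the increases among these 6. Of the motifs searched, the PU.1 string was found once, at Abca9.
Ifitm1 (chr7:140967826-140968125, plus strand): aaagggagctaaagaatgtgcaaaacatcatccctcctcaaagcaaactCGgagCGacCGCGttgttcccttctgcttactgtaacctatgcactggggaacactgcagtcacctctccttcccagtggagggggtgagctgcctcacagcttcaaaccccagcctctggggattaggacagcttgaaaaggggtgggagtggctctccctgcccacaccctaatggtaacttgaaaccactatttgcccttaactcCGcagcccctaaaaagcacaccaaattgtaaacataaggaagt
Cx3cr1 (chr9:120068247-120068546, minus strand): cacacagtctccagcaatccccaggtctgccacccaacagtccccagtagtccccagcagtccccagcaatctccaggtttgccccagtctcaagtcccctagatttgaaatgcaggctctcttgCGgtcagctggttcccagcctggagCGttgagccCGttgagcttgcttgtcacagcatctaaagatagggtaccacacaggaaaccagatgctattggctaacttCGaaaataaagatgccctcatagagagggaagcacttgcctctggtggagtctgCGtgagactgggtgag
Cd300e (chr11:115061990-115062289, minus strand): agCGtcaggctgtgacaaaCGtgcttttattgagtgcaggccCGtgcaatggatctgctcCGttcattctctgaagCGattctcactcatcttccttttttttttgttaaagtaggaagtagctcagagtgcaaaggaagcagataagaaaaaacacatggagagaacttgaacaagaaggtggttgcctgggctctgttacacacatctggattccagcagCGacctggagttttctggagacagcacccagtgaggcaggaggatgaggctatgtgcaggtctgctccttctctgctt
Abca9 (chr11:110168104-110168403, minus strand): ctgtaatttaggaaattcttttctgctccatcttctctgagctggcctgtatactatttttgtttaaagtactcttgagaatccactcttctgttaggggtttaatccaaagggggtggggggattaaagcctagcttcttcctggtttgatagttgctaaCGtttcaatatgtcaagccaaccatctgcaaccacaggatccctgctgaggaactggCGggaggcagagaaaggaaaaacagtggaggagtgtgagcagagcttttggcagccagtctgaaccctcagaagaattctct
Angptl2 (chr2:33215711-33216010, plus strand): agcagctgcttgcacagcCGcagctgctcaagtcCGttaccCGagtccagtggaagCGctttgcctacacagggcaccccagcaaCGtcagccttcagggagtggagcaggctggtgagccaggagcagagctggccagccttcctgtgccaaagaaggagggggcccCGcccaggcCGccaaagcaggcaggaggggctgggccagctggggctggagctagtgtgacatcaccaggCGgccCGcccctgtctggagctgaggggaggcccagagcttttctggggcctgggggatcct
Aig1 (chr10:13868908-13869207, minus strand): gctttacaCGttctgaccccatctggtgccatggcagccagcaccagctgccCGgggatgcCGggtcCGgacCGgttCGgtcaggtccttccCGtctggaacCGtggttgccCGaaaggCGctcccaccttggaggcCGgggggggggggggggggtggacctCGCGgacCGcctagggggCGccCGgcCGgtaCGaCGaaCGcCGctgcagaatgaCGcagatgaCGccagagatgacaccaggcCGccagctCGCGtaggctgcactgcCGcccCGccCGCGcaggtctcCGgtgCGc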

How the data were processed

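RNA of 24 samples was sequenced in the series, as poly(A) libraries made with a directional kit. The authors aligned the reads to mm9 with HISAT2 and deposited raw counts per gene symbol from HTSeq. The submitters' processing notes name DESeq2 1.30.0. Versions of the aligner and counter, the annotation and the strand setting are not given in the sources used here. Each table of counts held 23420 genes, and the 5 tallies of unassigned reads were left out.

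The deposited counts of 8 libraries of the Tet cohort (4 groups of 2) were fitted with DESeq2 1.42.0 in R 4.3.3 (median-of-ratios size factors, Wald test, unshrunken log2 fold changes, Benjamini-Hochberg adjusted p under 0.05). The low-count filter that DESeq2 chose left 12200 genes. edgeR 4.0.16, TMM factors, a filter of 10 counts in 2 libraries, no independent filtering, a fit of 4 libraries, a replicate block and leaving out each library were the alternatives. The fits were tested on simulated counts. Libraries of 1 group differed by more than counting noise. Intervals cover counting error only. Python 3.11.15, pandas 2.3.3 and matplotlib 3.10.9 were used for tables and plots.

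The comparison and the 50 gene lists (1126 genes, 990 tested, of which 156 were higher and 77 lower) were chosen with earlier results of these data known, so the lists are descriptions. Genes were named by rule: the targeted loci (not all of them reported here), the 12 largest changes each way among genes that average 50 or more normalised counts and whose groups do not overlap, up to 3 called genes each way in a list with a mean of at least 20 (or the 2 most abundant where none was called), and the 6 enhancer genes. Other names were chosen after their values were seen. Of 173 named genes, 24 share annotated exonic bases with another gene (among them Amica1, Ccna2, Cd34, Cd55, Cd9, Chi3l3, E2f8, Ebi3, H2-Aa, H2-Ab1, H2-Q4, Hif1a, Hsp90b1, Igfbp7, Il1a, Mcm7, Mxi1, Nusap1, Ppp1ca, Slc11a2, Slc7a2, Sulf2 and Tnfsf12). How reads over both were assigned is not given, so these counts are uncertain, as are those of near-identical families. Gene models were those of GENCODE M1 (mm9). Some results are not reported here.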

Additional observations from a re-analysis of the deposited data

Results flagged for a closer look

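For 9 of the genes named above, the difference between TET iTKO and WT was not the same after 6 h of KLA as before it, by the interaction term of the DESeq2 fit across all genes. The 9 were looked up among genes named mostly for their difference at 0 h, a choice that favours smaller differences at 6 h. Changes are given on the log2 scale as the difference at 6 h minus that at 0 h.

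Of these, 7 were higher in TET iTKO at 0 h and less so, or not at all, at 6 h. Fpr1 changed by -1.59 (adjusted p = 3.04e-11), from 1.72 to 0.13, Socs3 by -1.52 (adjusted p = 2.31e-07), from 1.60 to 0.08, and Sod2 by -0.76 (adjusted p = 7.68e-05), from 0.76 to 0.00. KLA raises all 3 in WT BMDMs. Cd300e changed by -2.32 (adjusted p = 5.95e-05), from 4.22 to 1.90, and Serpinb2 by -1.31 (adjusted p = 0.00329), from 3.00 to 1.68. Bmp1 changed by -2.92 (adjusted p = 0.0315), from 5.74 to 2.82, and Lcn2 by -1.01 (adjusted p = 0.00851), from 2.62 to 1.61.

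Hk2 changed sign, from 0.32 to -0.33, a change of -0.65 (adjusted p = 0.0125). Ppp1ca changed by 6.41 (adjusted p = 0.00349), from -6.05 to 0.36. WT libraries held it at 0 h, and none of the 4 libraries at 6 h held more than 3.48 normalised counts. Its exons overlap those of Rad9.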

How the results depend on the processing

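The number of genes called depended on single libraries. Leaving out each in turn gave 276 to 752 calls, with 175 to 440 higher and 101 to 312 lower. The count fell by more than 1.5 times without WT replicate 1 (386), WT replicate 2 (434) or TET iTKO replicate 2 (276). The sign of the difference was kept at 915 of 915 called genes without 3 of the libraries and at 914 of 915 without TET iTKO replicate 2. Of 156 named calls, 62 remained without each library and all kept their sign, while the log2 fold change of 20 moved by over 1.5 times without 1 library. Named calls were lost 83 times without TET iTKO replicate 2, 66 without WT replicate 1, 64 without WT replicate 2 and 31 without TET iTKO replicate 1.

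The other settings gave 688 calls with edgeR (377 higher and 311 lower), 927 with TMM factors, 954 with the fixed filter, 859 without independent filtering and 1106 with 4 libraries, and cost 36, 4, 2, 5 and 9 of the named calls. The higher genes that KLA also raised numbered 120 with edgeR and 315 with the KLA response of the Tet cohort, which shares the WT libraries at 0 h, against 191. The lower genes that KLA also lowered numbered 37 and 203, against 83. RefSeq promoter windows, added after the data were seen, held 79.5% of tested genes, too few for that check to count.

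The labels number replicates 1 and 2 in both groups. Deviations of same-numbered libraries correlated at 0.0521 at 0 h and 0.0476 at 6 h, so the numbers were not taken to pair libraries. With the replicate block, 1036 genes were called (624 higher and 412 lower), 890 of them among the 915, and 4 named calls were lost.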
